A study of Mus musculus with 12 samples.

Results

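The oligodendrocyte lineage was followed here through 9 genes in brains of mice that had received a bone marrow (BM) transplant and then a stroke. The genes were chosen by symbol, and each matched 1 row of the 49315 in the count table. Pdgfra, Cspg4, Olig1 and Olig2 mark oligodendrocyte precursor cells, Enpp6 marks newly formed oligodendrocytes, and Mbp, Mog, Mag and Mobp encode proteins of myelin. Head-shielded irradiation was used before transplantation of male CD45.1 Pep Boy recipients aged 8 to 12 weeks. The graft was 90% CD45.1 *Tet2*+/+ cells mixed with 10% CD45.2 cells, which were *Tet2*-/- in the mice called *Tet2*-KO and *Tet2*+/+ in the mice called WT. All 12 mice then underwent a middle cerebral artery occlusion of 30 min, 8 to 10 weeks after the transplant, and RNA of the brain was sequenced 14 d post-stroke. Each group held 6 mice, all with stroke, so no unoperated level of any gene was measured. The brain cells of both groups were those of the *Tet2*+/+ recipients, and only part of the blood carried the deletion. For the *Tet2*-KO mice 1 label field named control cells while title and genotype named the knockout, and the latter were followed.

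In the central nervous system, precursor cells divide in answer to platelet-derived growth factor, leave the cycle, pass through a short premyelinating stage and then wrap axons with myelin. Precursors gather and divide around a stroke, and the number that go on to mature is one measure of white matter repair. Genes of the early stage and genes of the myelin sheath are therefore read separately. In bulk tissue, fewer cells of a type and less RNA per cell cannot be told apart.

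The libraries held 12000261 to 15340787 counts in WT and 12625047 to 21049763 in *Tet2*-KO mice. Levels are given as CPM, counts per 1000000 counts of a library whose total was scaled by the trimmed mean of M values (TMM). *Tet2* itself measured 132 ± 7.6 CPM in WT and 131 ± 7.79 in *Tet2*-KO mice (SD, n = 6), which in tissue made mostly of recipient cells does not check the labels. WT replicate 2 had the highest level among the WT mice of all 9 genes. *Tet2*-KO replicate 5 also bore on the calls, and values that move most with either mouse are also given without it.

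All 9 genes had enough counts to be tested among 20290 genes. The lowest single count was 158, for Enpp6, at which counting error alone is 7.96%, and it was 600 for Cspg4, 900 for Pdgfra and 24625 for Mbp. Compared per length of exon sequence, as RPKM, CPM divided by the length of the exons in kb, the levels in WT mice ran from Mbp at 273 ± 26.2 and Mobp at 102 ± 11.5 through Olig1 at 54.2 ± 6.48 and Mag at 52.3 ± 5.87 to Mog at 31.2 ± 3.11. Olig2 followed at 14.8 ± 1.39 RPKM, then Pdgfra at 9.63 ± 1.86, Cspg4 at 4.68 ± 0.862 and Enpp6 at 3.08 ± 0.615 (SD, n = 6). By mean RPKM over the 12 mice, Mbp held rank 116, Mobp rank 267 and Enpp6 rank 12062 among the tested genes. Of neighbours in this order, only Olig1 and Mag changed places, Olig1 being the higher in 7 of 12 mice. All other neighbours kept their order in 12 of 12 mice. The ranges of Cspg4 and Enpp6 overlapped across the WT mice.

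The question put to the data was whether precursor and myelin genes differed between mice transplanted with *Tet2*-KO and with WT BM cells. The 4 myelin genes and 3 of the 4 precursor genes differed by less than their spread between mice, and the precursor gene Pdgfra was lower in *Tet2*-KO mice at 0.77 times the WT level. With adjustment over all genes, edgeR's quasi-likelihood test called 0 of the 9 genes, where it called 0.0246% of all genes. At an unadjusted p under 0.05 it called 1 of 9, Pdgfra, against 23.1% of all genes tested, 12.2% of them lower and 10.8% higher in *Tet2*-KO mice. DESeq2 called 0 of the 9 and 4.32% of its genes. Limma-voom with sample quality weights called 1, again Pdgfra, and 9.92% of genes.

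**Figure D1:**
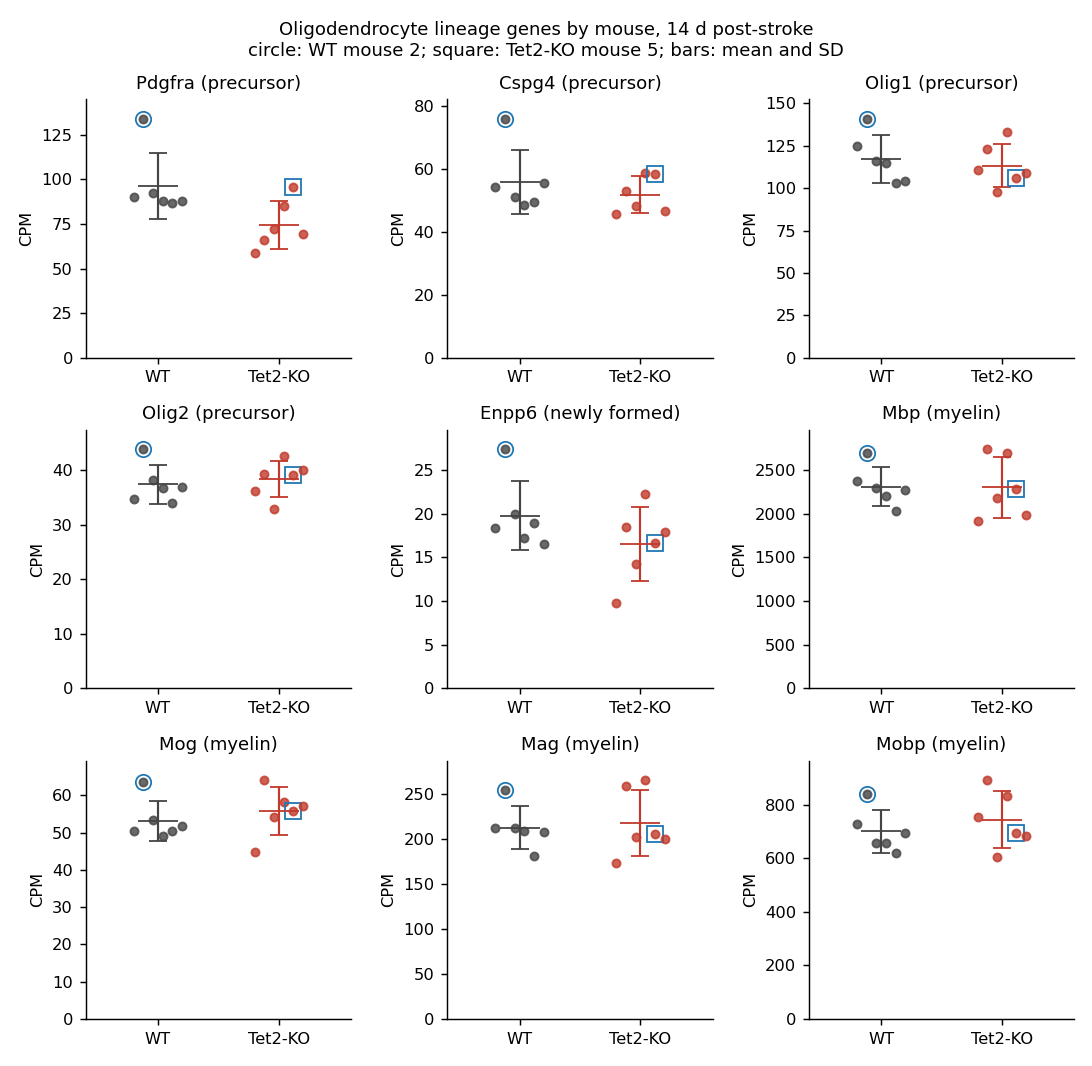
CPM of each of the 9 genes (y axis from 0) in each of the 6 WT and 6 Tet2-KO mice, with mean and SD. WT replicate 2 (ringed) is the highest WT mouse in every panel, and in the Pdgfra panel 5 of the 6 Tet2-KO mice lie below every WT mouse.

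Pdgfra (ENSMUSG00000029231, chr5:75152292-75198215, plus strand, GRCm38) encodes the alpha receptor for platelet-derived growth factor, which drives division and survival of precursors and is also made by fibroblasts. In WT replicates 1 to 6 it measured 90, 134, 92.4, 87.8, 86.6 and 88 CPM. In *Tet2*-KO replicates 1 to 6 it measured 58.7, 66, 71.9, 84.8, 95.8 and 69.2 CPM. Of the *Tet2*-KO mice, 5 lay below every WT mouse, the exception being replicate 5, and all 6 lay below the WT mean. At least 5 *Tet2*-KO mice below every WT mouse were seen for 5.64% of all tested genes. The log2 fold change, *Tet2*-KO over WT, was -0.38 ± 0.14 (SE), with a 95% interval of -0.68 to -0.07. Its edgeR p was 0.0161 and its adjusted p 0.148, and a two-sided exact permutation test gave p = 0.0303. Without WT replicate 2 the change was -0.26 (edgeR adjusted p = 0.276), and without *Tet2*-KO replicate 5 it was -0.46 (edgeR adjusted p = 0.0373), where 11% of genes were called. Over all alternatives the adjusted p lay between 0.0282, with limma-voom, and 0.276.

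The 5' flanks of Pdgfra and of the myelin gene Mog are given so that the early gene that was lower and a late gene that was not can be set side by side. They are the 250 bases before the RefSeq start of transcription in GRCm38.p6, read in the direction of the gene, chr5:75152001-75152250 on the plus strand and chr17:37023399-37023648 on the minus strand. Capitals mark CANNTG, the E-box letters that basic helix-loop-helix factors such as Olig1 and Olig2 bind.
Pdgfra: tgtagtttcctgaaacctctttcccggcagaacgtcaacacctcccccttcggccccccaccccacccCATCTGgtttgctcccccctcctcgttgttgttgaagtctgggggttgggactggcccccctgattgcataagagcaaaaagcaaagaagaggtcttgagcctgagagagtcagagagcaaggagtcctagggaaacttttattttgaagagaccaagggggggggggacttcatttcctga
Mog: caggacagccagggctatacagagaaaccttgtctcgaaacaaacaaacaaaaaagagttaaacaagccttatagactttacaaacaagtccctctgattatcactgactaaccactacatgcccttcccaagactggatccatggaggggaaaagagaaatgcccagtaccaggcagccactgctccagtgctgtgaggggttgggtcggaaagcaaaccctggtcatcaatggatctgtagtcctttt
The Pdgfra flank held 1 such match and the Mog flank 0, and 66.2% of 32851 RefSeq promoter windows of that length held at least 1. Neither flank held ACAAAG (or CTTTGT), letters bound by SOX factors, which 16.5% of windows held. CTGGCAC (or GTGCCAG), letters of the Myrf site, was in neither, and in 4.19% of windows. RefSeq flanks matched 7 of the 9 genes, with no entry for Olig1 and Mbp.

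Cspg4 (ENSMUSG00000032911, chr9:56865033-56899870, plus strand) encodes the NG2 proteoglycan of the precursor surface, which pericytes also make. It ran from 48.4 through a median of 52.7 to 76 CPM in WT and from 45.6 through 50.7 to 58.7 CPM in *Tet2*-KO mice. The groups overlapped, and 76 CPM was WT replicate 2. The log2 fold change was -0.11 ± 0.11 (SE, edgeR adjusted p = 0.589), and 0.0019 without WT replicate 2.

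Olig1 (ENSMUSG00000046160, chr16:91269772-91271933, plus strand) and Olig2 (ENSMUSG00000039830, chr16:91225457-91228677, plus strand) encode transcription factors that set up the lineage and stay on through it, and lie 41094 bp apart. Olig1 ran from 103 through 115 to 141 CPM in WT and from 97.9 through 110 to 133 CPM in *Tet2*-KO mice, the groups overlapping through most of their length. Its log2 fold change was -0.051 (95% interval -0.24 to 0.13; edgeR adjusted p = 0.76), and 0.007 without WT replicate 2. Olig2 ran from 34 through 36.7 to 43.8 CPM in WT and from 32.9 through 39.2 to 42.6 CPM in *Tet2*-KO mice. For Olig2 the log2 fold change was 0.040 (95% interval -0.12 to 0.20; edgeR adjusted p = 0.79). As both factors remain on in mature oligodendrocytes, their levels are not those of precursors alone.

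Enpp6 (ENSMUSG00000038173, chr8:46986887-47096762, plus strand) encodes a choline phosphodiesterase that peaks as precursors turn into oligodendrocytes. It ran from 16.5 through 18.7 to 27.4 CPM in WT and from 9.79 through 17.2 to 22.3 CPM in *Tet2*-KO mice. The highest was WT replicate 2 and the lowest *Tet2*-KO replicate 1, and the medians lay close together. The log2 fold change of -0.25 ± 0.18 (SE) had a 95% interval of -0.64 to 0.14 (edgeR adjusted p = 0.413). Leaving out *Tet2*-KO replicate 4 gave -0.36 and leaving out WT replicate 2 gave -0.14, the ends of its range over single mice. A level of 0.64 to 1.1 times that of WT was left within the interval, the widest of the 9.

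Mbp (ENSMUSG00000041607, chr18:82475146-82585637, plus strand) encodes myelin basic protein, which holds the inner faces of the sheath together. It ran from 2030 through 2280 to 2695 CPM in WT and from 1920 through 2235 to 2739 CPM in *Tet2*-KO mice. The lowest and the highest mouse of all were both *Tet2*-KO, replicates 1 and 2. The log2 fold change was -0.006 ± 0.10 (SE, 95% interval -0.22 to 0.21; edgeR adjusted p = 0.98).

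Mobp (ENSMUSG00000032517, chr9:120149707-120181484, plus strand) encodes a small basic protein of compact central myelin. It ran from 621 through 677 to 842 CPM in WT and from 605 through 724 to 894 CPM in *Tet2*-KO mice. Mag (ENSMUSG00000036634, chr7:30899176-30914873, minus strand), the glycoprotein of the innermost wrap that faces the axon, ran from 181 through 210 to 255 CPM in WT and from 173 through 204 to 266 CPM in *Tet2*-KO mice. Mog (ENSMUSG00000076439, chr17:37010743-37023398, minus strand), a glycoprotein of the outermost sheath that appears late in maturation, ran from 49.2 through 51.2 to 63.6 CPM in WT and from 44.8 through 56.5 to 64.2 CPM in *Tet2*-KO mice. For each of these genes the lowest and the highest of the 12 mice were *Tet2*-KO, so the WT range lay inside the other.

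The log2 fold changes of these late genes were 0.087 for Mobp (95% interval -0.12 to 0.30; edgeR adjusted p = 0.621), 0.032 for Mag (-0.20 to 0.26; edgeR adjusted p = 0.889) and 0.068 for Mog (-0.11 to 0.25; edgeR adjusted p = 0.653). For all 4 myelin genes the interval reached no lower than 0.858 times and no higher than 1.23 times the WT level. The spread between mice was wider in *Tet2*-KO mice for each of the 4, with coefficients of variation of 15.1% against 9.6% for Mbp and 16.8% against 11.2% for Mag.

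**Figure D2:**
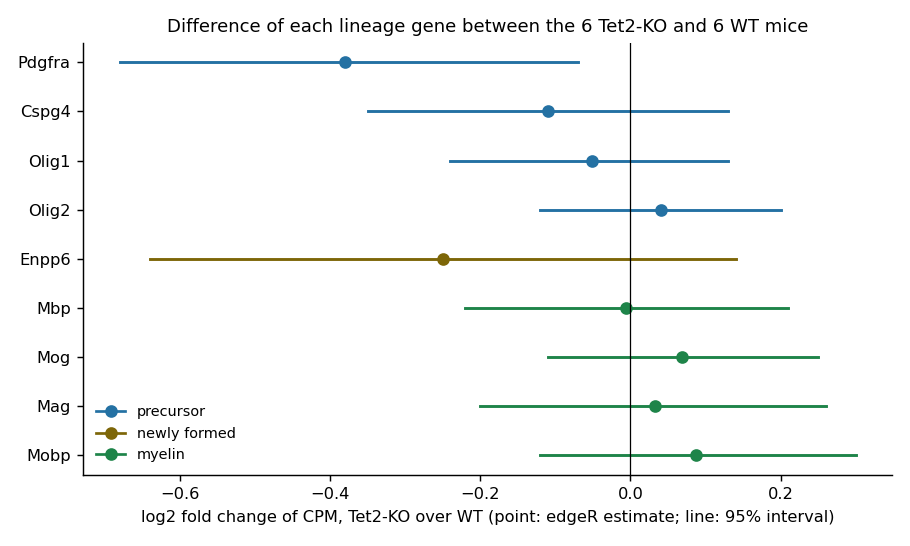
Log2 fold change of CPM, Tet2-KO over WT (x axis), for each of the 9 genes, with the edgeR estimate as a point and its 95% interval as a line, coloured by stage. Only the interval of Pdgfra, from -0.68 to -0.07, leaves out 0.

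The precursor genes were next set against the myelin genes within each mouse, which cancels the scaling of the library. The mean log2 CPM of the 4 precursor genes was 6.11 ± 0.18 in WT and 5.99 ± 0.14 in *Tet2*-KO mice, and that of the 4 myelin genes 8.52 ± 0.14 and 8.56 ± 0.19 (SD, n = 6). Precursor minus myelin was -2.40 ± 0.06 in WT, from -2.46 to -2.30, and -2.56 ± 0.13 in *Tet2*-KO mice, from -2.81 to -2.40. The difference between groups was -0.16, and 5 of 6 *Tet2*-KO mice lay below every WT mouse, replicate 5 being the exception. With Pdgfra left out of the precursor genes, the difference was -0.07 and 3 *Tet2*-KO mice lay below every WT mouse. The median log2 fold change was -0.08 over the precursor genes and 0.05 over the myelin genes, beside 0.010 over all genes tested. Without WT replicate 2 the precursor median was 0.0045 and the myelin median 0.11, and without *Tet2*-KO replicate 2 the myelin median was 0.0001.

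Of 11 ratios of single genes within a mouse, those of Pdgfra to Olig2 and to Mbp stood furthest below WT, at 0.755 and 0.785 times the WT mean. Pdgfra over Olig2 was 2.57 ± 0.257 in WT (2.39 to 3.07) and 1.94 ± 0.327 in *Tet2*-KO mice (1.62 to 2.45), with 5 *Tet2*-KO mice below every WT mouse. Pdgfra over Cspg4 was 1.73 ± 0.0925 in WT and 1.43 ± 0.146 in *Tet2*-KO mice, and again 5 lay below every WT mouse. The ratio to Mbp was 0.0416 ± 0.00438 in WT and 0.0326 ± 0.00582 in *Tet2*-KO mice, with the same count of 5. Pdgfra over Olig1 was 0.821 ± 0.0815 in WT and 0.664 ± 0.14 in *Tet2*-KO mice, with a count of 4. All these ratios reuse the levels of Pdgfra, so their counts are not separate observations. Enpp6 over Mbp also had 4 *Tet2*-KO mice below every WT mouse. Olig1 over Olig2, by contrast, was 3.14 ± 0.26 and 2.95 ± 0.188, with overlapping ranges. Among the late genes the proportions were tight, Mag over Mbp being 0.092 ± 0.00258 in WT and 0.0944 ± 0.00444 in *Tet2*-KO mice. Mobp over Mbp was 0.303 ± 0.00932 in WT and 0.326 ± 0.0399 in *Tet2*-KO mice, where it ran from 0.277 to 0.393. These ratios were computed with the levels known and were given no test.

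**Figure D3:**
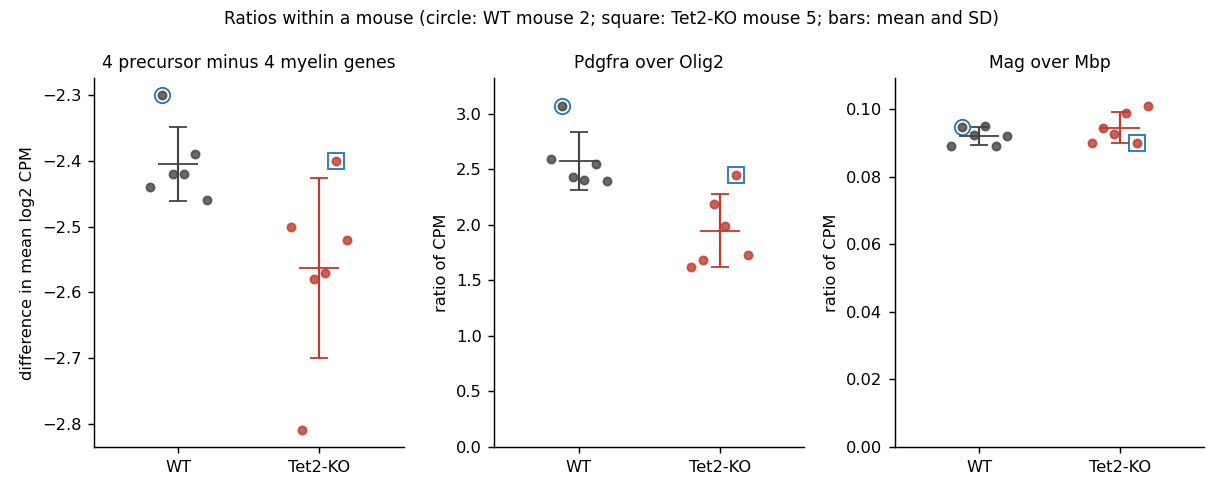
Precursor minus myelin genes in mean log2 CPM (left), the ratio of Pdgfra to Olig2 (middle) and the ratio of Mag to Mbp (right) in each mouse, with mean and SD of the 6 mice a group. The first 2 lie lower in 5 of 6 Tet2-KO mice than in any WT mouse, while the third overlaps.

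Pdgfra and Cspg4 are not made by precursors alone, and markers of other cells differed between the groups. All 9 of 9 fibroblast markers were lower in *Tet2*-KO mice at an unadjusted p under 0.05, where 12.2% of all genes were. Their median log2 fold change was -1.30, with Dcn at -1.30 and Twist1 at -0.98. Their summed level ran from 586 to 1331 CPM in WT and from 158 to 753 CPM in *Tet2*-KO mice. The highest *Tet2*-KO sum, 753, was in replicate 5, which also had the highest Pdgfra, and the lowest, 158, was in replicate 1, which had the lowest. The same 2 mice were highest and lowest for summed markers of activated phagocytes, homeostatic microglia, mural cells and dividing cells. Those of reactive astrocytes and of endothelial cells were highest in *Tet2*-KO replicate 4. Over the 12 mice, with group means removed, log2 CPM of Pdgfra and the log2 fibroblast sum had r = 0.88 (Spearman rho = 0.70), and r = 0.91 without WT replicate 2. For the other members the same r was 0.74 for Cspg4, 0.61 for Enpp6, 0.59 for Mbp, 0.53 for Mag, 0.49 for Mog, 0.43 for Olig2, 0.38 for Olig1 and 0.24 for Mobp. Without WT replicate 2 it was 0.77 for Cspg4, 0.52 for Enpp6 and 0.50 for Mbp, and fell to 0.43 for Mag, 0.34 for Mog, 0.26 for Olig2, 0.21 for Olig1 and 0.05 for Mobp. Pdgfra followed the summed markers of homeostatic microglia (r = 0.90), activated phagocytes (0.89), dividing cells (0.88) and reactive astrocytes (0.83) about as closely. Other members did so too. For reactive astrocytes r was 0.86 with Enpp6 and with Mag, and 0.84 with Mbp and with Cspg4. For homeostatic microglia it was 0.87 with Cspg4 and 0.83 with Enpp6, and for activated phagocytes 0.82 with Cspg4. For dividing cells the next highest was 0.69, with Enpp6. Mobp had the lowest r with each of these sums, from -0.01 to 0.49.

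Of the 11 mural cell markers 2 were lower at an unadjusted p under 0.05, Anpep at -1.38 and Pdgfrb at -0.58. That was a share of 18.2%, where 12.2% of all genes were lower. The mural sum ran from 385 to 521 CPM in WT and from 262 to 421 CPM in *Tet2*-KO mice. Within groups this sum had r = 0.93 (rho = 0.55) with Pdgfra and r = 0.85 (rho = 0.65) with Cspg4, then 0.79 with Enpp6, 0.73 with Olig2 (rho = 0.74), 0.70 with Mog, 0.69 with Mag, 0.68 with Mbp, 0.51 with Olig1 and 0.41 with Mobp. Without WT replicate 2 the last of these were 0.29 with Olig1 and 0.19 with Mobp. Of 12 neuronal markers 11 had a change above 0, and 10 were higher at an unadjusted p under 0.05, where 10.8% of all genes were. Their summed level was 4652 to 6370 CPM in WT and 5942 to 7757 CPM in *Tet2*-KO mice. The neuronal sum ran against all 9 members, with r between -0.94 for Cspg4 and -0.57 for Mobp. Without WT replicate 2 it was between -0.89 and -0.34 for the same genes. All 9 markers of activated phagocytes had a change below 0, and 7 were lower at an unadjusted p under 0.05, where 12.2% of all genes were. Lgals3 was among these 7, at -1.95. The phagocyte sum ran from 3139 to 7501 CPM in WT and from 738 to 3911 CPM in *Tet2*-KO mice. None of these markers passed the adjusted edgeR threshold, none of the 4 lists had a marker at 0 throughout, and the part of these cells in the level of Pdgfra was not tested.

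Schwann cells of cranial nerves share some myelin genes with oligodendrocytes. Of their 7 listed markers 5 had enough counts to be tested, and these summed to 143 to 154 CPM in WT and 138 to 166 CPM in *Tet2*-KO mice. Of the 5, Sox2 was lower at -0.19, and Drp2 at 0.19 and Ncmap at 0.58 were higher, at an unadjusted p under 0.05. Of the cortex markers 5 of 7 were higher in *Tet2*-KO mice (Rorb at 0.26, Tbr1 at 0.38) at an unadjusted p under 0.05, where 10.8% of all genes were. For striatum 1 of 8 (Drd1 at 0.24) and for cerebellum 1 of 5 tested (Neurod1 at 0.40) were higher, counts near that share. The cerebellum sum was 67.9 CPM in *Tet2*-KO replicate 2 and 77.7 in replicate 4. WT mice had 40.2 to 53.5 and the other *Tet2*-KO mice 43.9 to 57.7. Replicate 2 or 4 also held the *Tet2*-KO maximum of each myelin gene. Within groups this sum had r from -0.35 with Pdgfra to 0.45 with Olig1. Without WT replicate 2, r ran from -0.16 with Pdgfra to 0.85 with Olig1, with 0.75 for Mobp, 0.59 for Mag and 0.55 for Mbp. The part of cerebellum in these levels was not tested. Of the thalamic genes Prkcd was lower at -0.20 and Rora higher at 0.19, and neither of the 2 hindbrain genes that could be tested was called. Of the remaining lists, 3 of 6 markers of reactive astrocytes, 2 of 7 of endothelial cells and 1 of 6 of dividing cells (Mki67 at -0.71) were lower at an unadjusted p under 0.05. Of all genes 12.2% were. The change was below 0 for all 6 reactive astrocyte and all 6 dividing cell markers. Higher at that threshold were 3 of 5 markers of red blood cells and 1 of 7 of astrocytes, and 0 of 8 of homeostatic microglia were called by edgeR.

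The levels of the 9 genes varied together from mouse to mouse. With group means removed, r of log2 CPM over the 12 mice ranged from 0.54 to 0.96 among the 6 pairs of myelin genes (median 0.77) and from 0.46 to 0.88 among the 6 pairs of precursor genes (median 0.69). Between precursor and myelin genes it ranged from 0.30 to 0.87 over 16 pairs, also with a median of 0.69, so precursor genes were no closer to one another than to myelin genes. The closest pair was Mbp with Mag at 0.96, also 0.96 without WT replicate 2. Pdgfra with Cspg4 reached 0.88, and Olig1 with Olig2 0.76. Without WT replicate 2 the median was 0.71 among myelin genes, 0.45 among precursor genes and 0.50 between them. Pdgfra and Mobp were the least alike, at 0.30, and at -0.10 without WT replicate 2. Enpp6 went with Mog at 0.90. These points share libraries and scaling, and the r values are descriptions only.

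**Figure D4:**
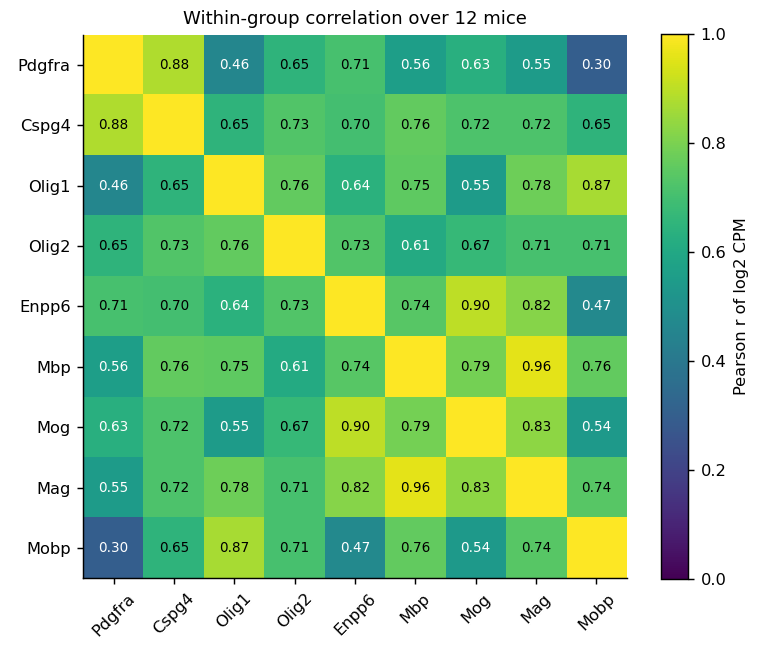
Pearson r of log2 CPM between each pair of the 9 genes over the 12 mice after the mean of each group was removed, as a heat map from 0 to 1. Mbp with Mag (0.96) is the highest pair and Pdgfra with Mobp (0.30) the lowest.

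Among all tested genes, those whose level followed each member most closely in this way were in part genes of the same cells. For Mog they included the tetraspanin gene Tspan2 (r = 0.97) and Timm21 (0.94). For Mbp they were Bcas1 (0.97), Mag (0.96) and Klhl25 (0.96), and for Mag they were Mbp (0.96), 5031439G07Rik (0.95) and Pacs2 (0.95). Mobp was followed by Slc6a3 (0.95), Plekhb1 (0.94) and Sh2b1 (0.92). Enpp6 was followed by the microglial receptor gene P2ry12 (0.97), Il33 (0.96) and Qk (0.96), the last an RNA-binding protein needed for myelin.

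None of the nearest genes of the precursor members was on the lineage lists. Pdgfra was followed by Ndst2 (0.98), Sppl2a (0.97) and Elk3 (0.97), and Cspg4 by genes that included Serpine2 and Capn2, each at 0.98. Olig1 was followed by Fam222a (0.97), Trp53inp2 (0.96) and Serf2 (0.95), and Olig2 by Ebf3 (0.95), Rasl12 (0.94) and Vmac (0.93). For each member these were among the 3 highest of 20289 correlations, and no test of likeness was made.

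Beyond the 9 members, 138 of 140 listed genes of the lineage, its signals and its inhibitors could be tested. None passed the adjusted edgeR threshold, and at an unadjusted p under 0.05 there were 26 lower and 15 higher in *Tet2*-KO mice, 29.7% of them beside 23.1% of all genes, with a median log2 fold change of -0.06 beside 0.010. The share called in either direction was 53.8% among ligands and 52.9% among receptors. In each of the other lists it lay between 10% and 35.3%. By direction, 12.2% of all genes were lower and 10.8% higher at that threshold. Values below are log2 fold changes, and genes named with a direction had an unadjusted p under 0.05.

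Of 17 transcription factors of the lineage, 4 were lower and 2 higher, with a median of -0.02. Sox10 was lower at -0.20, as were Nkx2-2, which acts at the start of differentiation, at -0.23 and the differentiation inhibitor Id2 at -0.16. Zfp536 at 0.13 and Sox5 at 0.19 were higher. Of 14 other precursor markers 1 was lower, C1ql1 at -0.29, and 3 were higher, namely Pcdh15 at 0.15, Cspg5 at 0.13 and Tnr at 0.13. Of the 14 the change was below 0 for 6 and above 0 for 8, with a median of 0.00. Of 10 tested markers of differentiating oligodendrocytes, 1 was called, the calcium-sensing receptor gene Casr, higher at 0.57, with a median of -0.08.

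Of 24 other structural genes of myelin and its nodes, 1 was lower (Cd82 at -0.48) and 2 were higher (Omg, oligodendrocyte myelin glycoprotein, at 0.21 and Tppp, which orders microtubules, at 0.14), with a median of -0.02. Of the 24 the change was below 0 for 15 and above 0 for 9. Of 17 genes for myelin lipids and metabolism, 5 were lower and 0 higher by edgeR, with a median of -0.13. That was 29.4% lower, beside 12.2% of all genes, and the change was below 0 for 15 and above 0 for 2. The 3 of smallest p were the sugar transporter gene Slc45a3 at -0.59, the lysosomal galactosylceramidase gene Galc at -0.27 and the fatty acid elongase gene Elovl1 at -0.35. Of 19 other markers of mature oligodendrocytes 3 were lower, Dock5 at -0.39, Ndrg1 at -0.23 and Apod at -0.59, with a median of -0.12. That share, 15.8%, was near the 12.2% of all genes, and of the 19 the change was below 0 for 15 and above 0 for 4. Several of these genes, Galc, Ndrg1 and Apod among them, are made by other brain cells too.

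Of 13 ligands that act on precursors, 6 were lower and 1 higher, with a median of -0.21. They included the chemokine gene Cxcl12 at -0.64, the Notch ligand gene Jag1 at -0.41 and Gas6 at -0.29, while neuregulin, Nrg1, was higher at 0.14. Of 17 receptors, 5 were lower and 4 higher, with a median of -0.14. The receptor for Cxcl12, Cxcr4, which leukocytes also carry, was lower at -1.56, Lpar6 at -0.48 and Egfr at -0.33, while Grik1 at 0.29, Erbb4 at 0.20 and Adgrb3 at 0.22 were higher. Of 12 tested inhibitors of differentiation or axon growth, 2 were lower, Id2 and Sfrp1 (-0.28), and 2 were higher, Lingo1 at 0.39 and the Nogo receptor gene Rtn4r at 0.36, both mainly neuronal genes. The median of the inhibitors was -0.05.

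**Figure D5:**
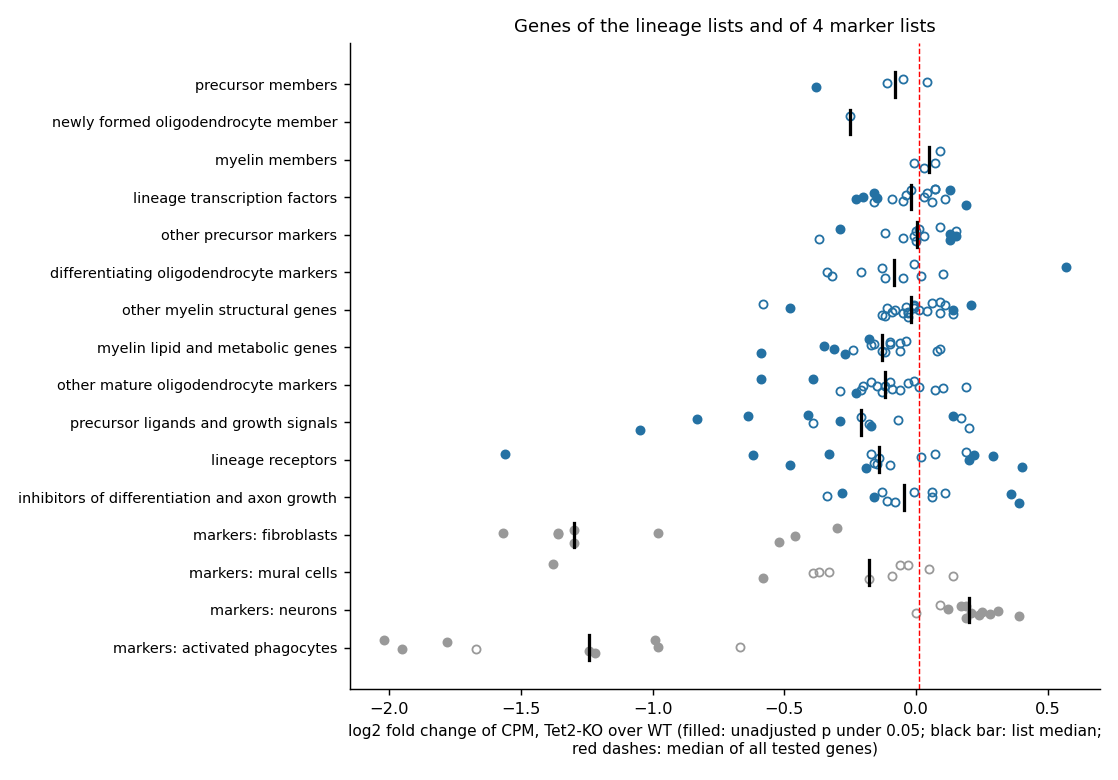
Log2 fold change, Tet2-KO over WT (x axis), of each tested gene of the member groups, the lineage lists and 4 marker lists, filled where the unadjusted edgeR p was under 0.05, with list medians as black bars and the median of all tested genes dashed. The lineage lists centre between -0.21 and 0.00, the myelin members at 0.05 and the fibroblast markers at -1.30.

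Few exon bases of the members were shared with another annotated gene. Pdgfra shared 4.55% of its exon bases with the opposite-strand Gm42802, which had 0 counts in every mouse, and Olig1 shared 7.26% with the opposite-strand Gm15966, which had at most 1. Mobp shared 1.15% with Gm38642 on its own strand, which had 20 to 69 counts. As the strand setting of the counting is not given in the sources used here, reads of the opposite strand cannot be told apart from those of the gene.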

How the data were processed

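Brains of 12 mice were profiled by bulk RNA sequencing after ribosomal RNA depletion, with paired reads of 150 bases. The values used are raw counts per gene, which the authors deposited as 1 table. Per the labels and the study's methods, reads were trimmed with Trimmomatic 0.36 and aligned to mm10 with STAR 2.5.2b, and unique reads in exons were counted with featureCounts of Subread 1.5.2. Samples were grouped by title, and nothing states how the brains were divided beyond whole brains or hemispheres. The Ensembl IDs were given symbols, positions and exon lengths from GENCODE M21 (GRCm38), and 49056 of 49315 had a symbol.

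Counts were filtered with filterByExpr and scaled by TMM, and 6 mice were compared with 6 by edgeR's quasi-likelihood test (edgeR 4.0.16, limma 3.58.1, R 4.3.3), with Benjamini-Hochberg adjustment over 20290 genes and a threshold of 0.05. Intervals at 95% used 10 degrees of freedom. Single genes were also compared on log2(CPM + 0.1) by a two-sided exact permutation test (scipy 1.17.1), whose smallest possible p is 0.00216. Log2 CPM and within-group correlations used a prior count of 2. The study tested with DESeq2, which was an alternative here (1.42.0), as were limma-voom, other scalings and filters, a replicate block and each mouse left out. The fits were tested on simulated data. No set test was run. The precursor and myelin genes and all lists were chosen with earlier results of these data known. The text names all 9 genes, the 3 genes nearest to each, and from each list up to 3 genes a direction with the smallest unadjusted p under 0.05. A few of the genes this rule names are not reported here. Of the lists, Tmem2 had no match by symbol and Wnt3a was too low to test. Every mouse is 1 sample, and p-values measure the spread between mice.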

Additional observations from a re-analysis of the deposited data

Results flagged for a closer look

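WT replicate 2 stood apart from the other WT mice by its gap in 3 of the 20 groups of 6 values that were checked, where chance gives about 1. These 3 are not separate checks, as they come from 1 mouse and the genes varied together. It measured 7.07 log2 CPM of Pdgfra, where the other WT mice measured 6.44 to 6.53. It measured 6.25 log2 CPM of Cspg4, where the others measured 5.60 to 5.80, and 5.99 log2 CPM of Mog, where the others measured 5.62 to 5.74. The same mouse had the highest sum of fibroblast markers, 1331 CPM, and of activated phagocyte markers, 7501 CPM, and the lowest sum of neuronal markers, 4652 CPM, among the WT mice, and their part in its levels was not tested.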

How the results depend on the processing

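Pdgfra was lower in *Tet2*-KO mice under all 19 alternatives, from -0.46 to -0.26 on the log2 scale, and passed the adjusted threshold in 2 of them, with limma-voom (-0.34, adjusted p = 0.0282) and with edgeR without *Tet2*-KO replicate 5 (-0.46, adjusted p = 0.0373). No other of the 9 genes passed it under any alternative. The signs of the near-zero changes turned: with single mice left out Cspg4 ran from -0.15 to 0.0019 and Olig1 from -0.11 to 0.007, in both cases highest without WT replicate 2. Mbp came to 0.056 with limma-voom and 0.027 with upper quartile scaling, and to between -0.061 and 0.043 with single mice left out. Mag came to between -0.037 and 0.091 with single mice left out. Olig2, Mog and Mobp stayed above 0 and Enpp6 below 0 under all 19. The median over the precursor genes ran from -0.13 to 0.0045 and that over the myelin genes from 0.0001 to 0.11 with single mice left out. Upper quartile scaling moved the median of all genes from 0.010 to 0.043. Precursor minus myelin differed by -0.16 between groups, by -0.29 with medians over members in place of means, by -0.19 to -0.11 with single mice left out, and by -0.075 without Pdgfra, an alternative chosen after seeing the data, as was leaving WT replicate 2 out of correlations and of counts of mice. The count of all genes past the adjusted edgeR threshold, 5, moved most: DESeq2 called 902, limma-voom 2013, and edgeR 44 with no filter and 0 with at least 10 counts in every library (4241 at an unadjusted p under 0.05). With single mice left out it ran from 0 to 2257, the highest without *Tet2*-KO replicate 5. Deviations of same-numbered mice correlated at -0.17 to 0.23, over 0.1 for 1 of 6 pairs, so no pairing by replicate number was seen. Whether mice were paired cannot be told from 6 such values. A replicate block called 0 genes by edgeR (4329 at an unadjusted p under 0.05). The cause of these moves was not tested. Depth limited Enpp6 most, at 7.96% counting error for its lowest count.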
